A study of Mus musculus with 7 samples.

Results

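The 8 genes Pdx1, Onecut1, Onecut2, Foxa1, Foxa2, Hnf4a, Prox1 and Gata6 encode transcription factors of the pancreatic progenitor epithelium and of its trunk domain. They were taken by symbol from a table of 27138 features, and all 8 had enough reads to be among the 16910 features tested. RNA with poly(A) tails was sequenced from whole pancreas of mouse embryos at E15.5. The 3 cKO libraries came from embryos with floxed alleles of 2610035D17Rik, the mouse counterpart of human LINC00673, a long non-coding RNA, together with Pdx1-Cre. The 4 WT libraries came from embryos with the same floxed alleles and no Cre. Every library was from its own animal, and the comparison asks how these factors stood in the pancreas once the RNA was deleted.

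Cre in the cKO embryos is driven by regulatory sequence of Pdx1, itself one of the 8 genes, which is active in the epithelium. The sources used here do not name the Pdx1-Cre line. Because WT embryos lacked Cre, the deletion and the presence of Cre cannot be told apart. A dissected pancreas also holds mesenchyme, vessels, nerves and blood, and in such bulk RNA fewer cells of a type and less RNA per cell cannot be told apart. Library totals were 17028268 to 17757922 counts in cKO and 14883918 to 17767373 in WT. The column header of WT replicate 4 carries another number than those of the other 6 libraries, and the sources used here do not say what that number means. The targeted RNA had 34, 57 and 41 counts in cKO replicates 1 to 3. WT replicates 1 to 4 had 168, 147, 137 and 125. Its level in cKO was 0.295 times that in WT, a log2 fold change of -1.76 (95% interval -2.25 to -1.27). This did not reach an adjusted p under 0.05 (edgeR quasi-likelihood test, unadjusted p = 1.86e-05, Benjamini-Hochberg adjusted p = 0.0902).

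During pancreas development, multipotent epithelial progenitors divide into tip cells, which become acinar, and trunk cells, which give rise to ducts and endocrine cells. FOXA1 and FOXA2 are forkhead pioneer factors that open chromatin of the gut tube endoderm, and FOXA2 is known to activate Pdx1. PDX1 is required for the pancreas to form and later for beta cell function. ONECUT1, also called HNF6, and its relative ONECUT2 act in the trunk and ahead of endocrine commitment. HNF4A is a nuclear receptor of liver, gut and pancreas, PROX1 is a homeodomain factor of pancreatic progenitors and of lymphatic vessels, and GATA6 is a zinc finger factor needed, together with GATA4, for pancreas formation.

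These factors are known to regulate one another, and short matches to their binding sequences lie in some of their own promoter windows. The windows are from RefSeq on GRCm38.p6, another build than the mm39 named by the submitters, and run from 250 bases before to 50 bases after a transcription start. Windows were given for 6 of the 8 genes, 10 in all. The Foxa2 and Hnf4a windows are shown because each holds the ONECUT match ATCAATA, on either strand, which 2.05% of all 32851 windows hold. The Foxa1 window is shown for the FOXA match TGTTTAC, held by 3.65% of windows. Capitals mark these matches and AGATAA for GATA, held by 11.2% of windows. The Foxa2 window lies at chr2:148046920-148047219 on the minus strand, the Hnf4a window at chr2:163506607-163506906 on the plus strand and the Foxa1 window at chr12:57546062-57546361 on the minus strand.
Foxa2: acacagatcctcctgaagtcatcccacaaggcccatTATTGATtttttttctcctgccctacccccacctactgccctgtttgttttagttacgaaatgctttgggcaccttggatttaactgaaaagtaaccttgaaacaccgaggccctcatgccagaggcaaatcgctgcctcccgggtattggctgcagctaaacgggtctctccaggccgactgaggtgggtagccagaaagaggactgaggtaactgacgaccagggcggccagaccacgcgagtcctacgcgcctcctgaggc
Hnf4a: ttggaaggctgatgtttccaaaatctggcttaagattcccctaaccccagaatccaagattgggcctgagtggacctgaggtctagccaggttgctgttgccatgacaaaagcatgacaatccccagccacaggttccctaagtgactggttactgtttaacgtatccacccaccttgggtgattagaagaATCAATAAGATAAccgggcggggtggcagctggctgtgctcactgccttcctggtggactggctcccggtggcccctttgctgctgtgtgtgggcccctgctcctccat
Foxa1: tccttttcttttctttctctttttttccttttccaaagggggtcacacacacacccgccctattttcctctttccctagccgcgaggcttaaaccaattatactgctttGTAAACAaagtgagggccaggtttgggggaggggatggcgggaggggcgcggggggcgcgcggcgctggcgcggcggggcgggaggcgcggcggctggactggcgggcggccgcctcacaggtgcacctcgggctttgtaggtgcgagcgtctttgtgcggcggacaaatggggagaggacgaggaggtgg
In the Hnf4a window the ONECUT and GATA matches adjoin with 0 bases between them and do not overlap. Of the other windows, a second Foxa2 start held AGATAA and a second Hnf4a start held CTAATTA, a PDX1 match found in 2.00% of windows. The HNF4 match CAAAGTCCA was in 0 of the 10 windows and in 0.475% of all windows. The letters searched were chosen with these windows in view, and a match is not evidence of binding.

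Of the 8 factors, 0 were called different between cKO and WT at an adjusted p under 0.05, where 0.00591% of the tested features were called (edgeR quasi-likelihood test, Benjamini-Hochberg adjustment over 16910 features). That share is 1 feature, an assembled transcript with no gene symbol that was higher in cKO. Without adjustment 0 of 8 had p under 0.05, where 1.38% of all tested features did. DESeq2 and limma-voom also called 0 of 8, and limma-voom gave Foxa1 an unadjusted p of 0.0341. Among the 8, Foxa2, Hnf4a and Gata6 had the narrowest intervals, and Onecut1, Onecut2 and Foxa1 the widest. The SEs of Foxa2, Hnf4a and Gata6 were 0.0931, 0.130 and 0.0759, where the median of tested features above 10 CPM was 0.115. In 0 of the 8 did the cKO and WT libraries fall into ranges that do not overlap, which 2.72% of tested features did. The edgeR estimate was higher in cKO for 3 factors and lower for 5, with a median log2 fold change of -0.05. Over all tested features 7771 were higher and 9139 lower, with a median of -0.01.

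**Figure D1:**
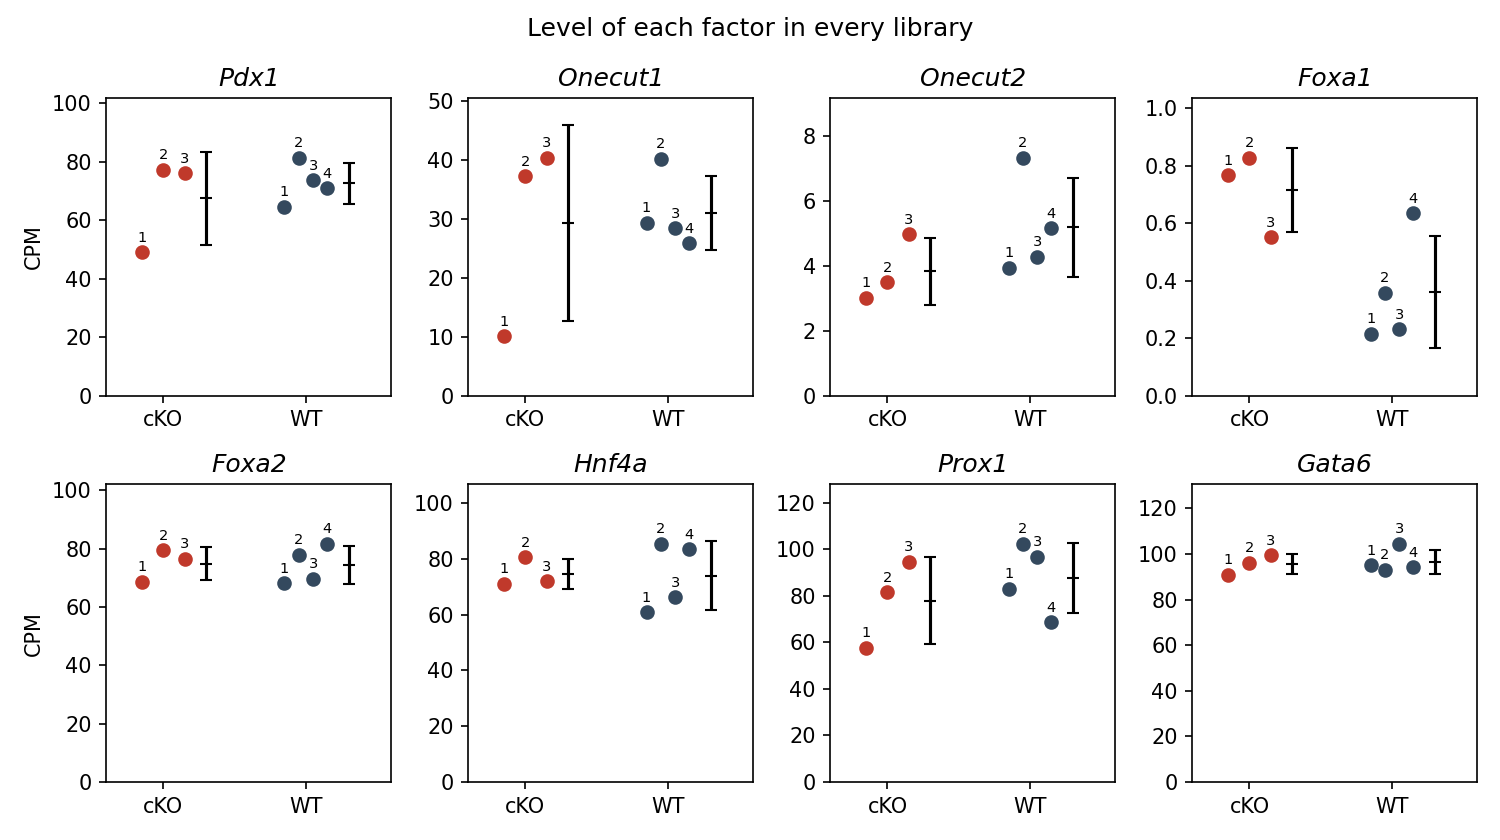
Level of each factor in CPM, counts scaled to library size with TMM factors, in the 3 cKO (red) and 4 WT (dark) libraries, with replicate numbers above the points and the mean and SD beside them. Onecut1 stood at 10.1 CPM in cKO replicate 1 and between 25.9 and 40.4 CPM in the other 6 libraries, while Gata6 stayed between 90.9 and 105 CPM.

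Per kilobase of exon, the forkhead pair differed more from each other than either did between genotypes. Foxa2 had 68.7, 79.5 and 76.5 CPM in cKO replicates 1 to 3, against 68.2, 77.9, 69.7 and 81.7 CPM in WT replicates 1 to 4. The groups lay over each other, with 74.9 ± 5.54 CPM in cKO (SD, n = 3) and 74.4 ± 6.50 CPM in WT (SD, n = 4). The fitted log2 fold change was 0.01 (SE 0.0931), and its 95% interval of -0.20 to 0.22 spans 0.871 to 1.17 times the WT level.

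Foxa1 was near the lower limit of detection, with 13, 14 and 10 counts in cKO replicates 1 to 3, against 4, 6, 4 and 9 in WT replicates 1 to 4. Scaled to library size these were 0.717 ± 0.145 CPM in cKO (SD, n = 3) and 0.360 ± 0.194 CPM in WT (SD, n = 4). The lowest cKO library, at 0.553 CPM, was below WT replicate 4, at 0.636 CPM. The log2 fold change of 1.01 (95% interval -0.03 to 2.05) was the largest of the 8 but did not pass (edgeR unadjusted p = 0.0557, adjusted p = 0.9999). FOXA1 is also a hepatocyte factor, and the 12 liver markers, of which 0 were at 0 counts in all libraries, summed to 1654, 113 and 146 CPM in cKO replicates 1 to 3, against 78.2, 135, 83.6 and 969 CPM in WT replicates 1 to 4. All 12 were higher in the cKO fit, with 0 called and 0 at an unadjusted p under 0.05, and their part in the Foxa1 counts was not tested. In cKO replicates 2 and 3, with liver sums of 113 and 146 CPM, Foxa1 stood at 0.83 and 0.553 CPM. Among the WT libraries the most Foxa1 counts, 9, were in replicate 4, which had the highest WT liver sum, 969 CPM. The fewest, 4 in each, were in WT replicates 1 and 3, which had the lowest liver sums, 78.2 and 83.6 CPM.

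Pdx1 had 48.9, 77.2 and 76.1 CPM in cKO replicates 1 to 3, against 64.5, 81.4, 73.5 and 70.9 CPM in WT replicates 1 to 4. cKO replicate 1 was the lowest library, and the other 2 cKO libraries were inside the WT range. The group values were 67.4 ± 15.99 CPM in cKO (SD, n = 3) and 72.6 ± 6.98 CPM in WT (SD, n = 4), a log2 fold change of -0.11 (95% interval -0.47 to 0.26, edgeR adjusted p = 0.9999). Without cKO replicate 1 the estimate was 0.08, the opposite direction, and was not called. Plut, an antisense RNA gene that overlaps Pdx1 with 0 shared exon bases, had 5.84 ± 0.515 CPM in cKO (SD, n = 3) and 5.20 ± 0.716 CPM in WT (SD, n = 4), and its estimate of 0.17 on the log2 scale had a 95% interval of -0.24 to 0.57. The library kit in the labels does not mark strand, so reads of Pdx1 introns and of Plut exons cannot be separated.

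Onecut1 varied more between libraries than any other factor above 10 CPM. It had 10.1, 37.2 and 40.4 CPM in cKO replicates 1 to 3, against 29.3, 40.2, 28.4 and 25.9 CPM in WT replicates 1 to 4. One cKO library lay far below the WT range and the other 2 at its upper end. The log2 fold change of -0.08 had a 95% interval of -1.17 to 1.01, or 0.443 to 2.01 times the WT level. Without cKO replicate 1 it was 0.33, the opposite direction, and was not called (edgeR unadjusted p = 0.0832, adjusted p = 1.00), and without WT replicate 2 it was 0.07. The standard deviation of its log2 CPM over the 7 libraries was 0.691, larger than that of 98.1% of the 10702 features with a mean of 10 CPM or more. A non-coding gene that shares 2171 exon bases with Onecut1 was not analysed here.

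Onecut2 was scarcer, with 51, 59 and 90 counts in cKO replicates 1 to 3, against 73, 123, 74 and 73 in WT replicates 1 to 4. The groups overlapped at 3.83 ± 1.02 CPM in cKO (SD, n = 3) and 5.18 ± 1.52 CPM in WT (SD, n = 4). WT replicate 2, at 7.33 CPM, was the highest library. The log2 fold change was -0.43 (95% interval -1.06 to 0.20, edgeR unadjusted p = 0.154, adjusted p = 0.9999). Without WT replicate 2 it was -0.22.

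Hnf4a had 71.1, 80.7 and 72.0 CPM in cKO replicates 1 to 3, against 60.9, 85.4, 66.3 and 83.5 CPM in WT replicates 1 to 4. The cKO libraries lay inside the WT range, and the log2 fold change was 0.01 (95% interval -0.28 to 0.30). Hepatocytes also express Hnf4a. Beside these values, the liver sums were 1654, 113 and 146 CPM in cKO replicates 1 to 3. They were 78.2, 135, 83.6 and 969 CPM in WT replicates 1 to 4. The part of liver RNA in its level was not tested.

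Gata6 was the most even of the factors. It had 90.9, 96.2 and 99.6 CPM in cKO replicates 1 to 3, against 95.0, 93.1, 105 and 94.1 CPM in WT replicates 1 to 4. The log2 fold change was -0.02 (95% interval -0.19 to 0.16), so that values outside 0.877 to 1.11 times the WT level fall beyond the interval. The standard deviation of its log2 CPM was 0.0669, and 6.39% of features with a mean of 10 CPM or more had a smaller one. Gata6 is also expressed in mesenchyme and muscle, which a bulk level does not separate from epithelium. Its opposite-strand neighbour 1010001N08Rik, which shares 93 exon bases with it, had 3.65 ± 1.10 CPM in cKO (SD, n = 3) and 3.69 ± 0.348 CPM in WT (SD, n = 4).

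Prox1 had 57.6, 81.4 and 94.6 CPM in cKO replicates 1 to 3, against 83.0, 102, 96.8 and 68.7 CPM in WT replicates 1 to 4. The lowest library of each genotype was the one with the highest liver sum, cKO replicate 1 and WT replicate 4. The log2 fold change was -0.17 (95% interval -0.61 to 0.27, edgeR adjusted p = 0.9999), and it was 0.01 without cKO replicate 1. Of 5 lymphatic endothelial markers 3 were analysed, Flt4, Reln and Lyve1, and they summed to 108, 97.0 and 103 CPM in cKO, against 90.9, 94.1, 126 and 101 CPM in WT, with 2 of 3 higher in the fit and 0 called. Their part in the Prox1 level was not tested. The antisense genes Prox1os and Gm28172 stayed under 1 CPM on average, at 0.561 and 0.826 CPM in cKO and 0.444 and 0.790 CPM in WT.

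**Figure D2:**
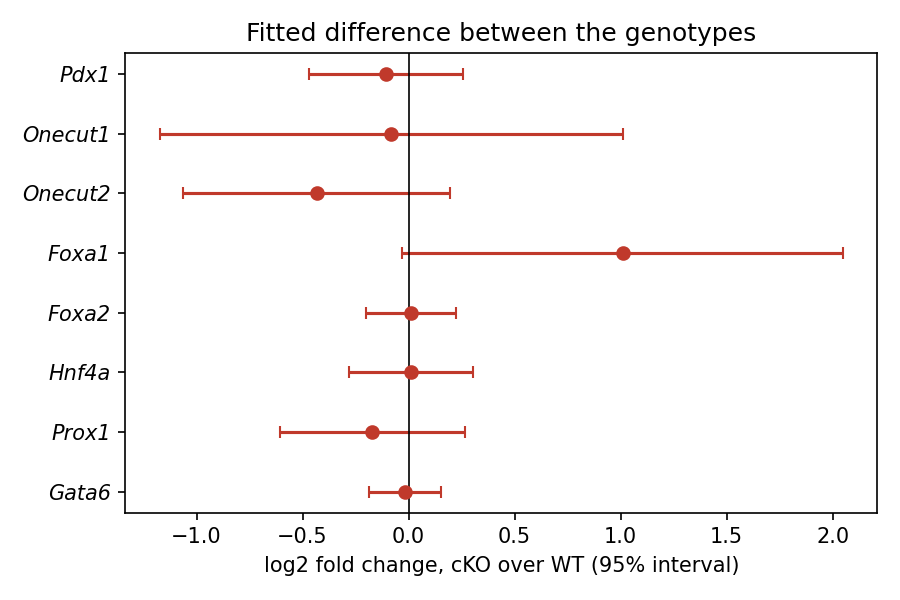
Fitted log2 fold change of each factor, cKO over WT, with its 95% interval from edgeR's quasi-likelihood fit. All 8 intervals include 0, and they are narrowest for Gata6 (-0.19 to 0.16) and widest for Onecut1 (-1.17 to 1.01).

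Per kilobase of exon, Pdx1 and Foxa2 had the highest means and Foxa1 the lowest in both genotypes. Exon lengths came from GENCODE M21, and levels are given as CPM per kilobase. Pdx1 and Foxa2 were at 31.2 ± 7.41 and 31.6 ± 2.34 in cKO (SD, n = 3) and 33.6 ± 3.23 and 31.4 ± 2.74 in WT (SD, n = 4). Hnf4a and Gata6 followed at 15.45 and 14.7 in cKO and 15.3 and 14.9 in WT, then Prox1 and Onecut1 at 9.28 and 7.11 in cKO and 10.5 and 7.53 in WT. In WT the neighbours Pdx1 and Foxa2, Hnf4a and Gata6, and Prox1 and Onecut1 overlapped in their library values, and the other steps did not. In cKO the library values of Onecut2, at 0.186 to 0.306, and of Foxa1, at 0.166 to 0.249, also overlapped. Onecut2 and Foxa1 were far below the rest, at 0.236 and 0.215 in cKO and 0.319 and 0.108 in WT. Foxa1 was thus higher per kilobase than 0.846% of tested features in WT, and Pdx1 higher than 90.9%. Onecut2 has 16.2 kb of annotated exon, and its level per kilobase would be higher if shorter transcripts were the ones made.

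**Figure D3:**
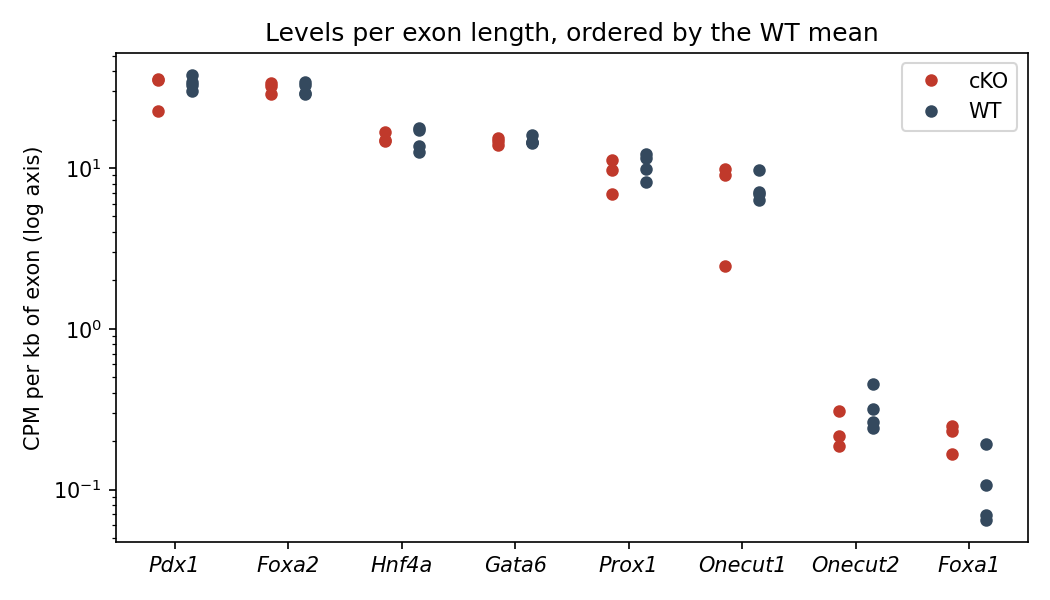
Levels in CPM per kilobase of merged exon on a log axis, by factor in the order of the WT mean, for cKO (red) and WT (dark) libraries. Pdx1 and Foxa2 lie near 31 to 34 in group means, and Onecut2 and Foxa1 below 0.5 in every library.

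cKO replicate 1 was the lowest of the 7 libraries for most of the factors. Onecut1, Pdx1, Prox1, Onecut2 and Gata6 were each lowest there, 5 of 8, where 25.8% of all tested features and 31.2% of those with a mean of 10 CPM or more had their lowest value. Onecut1 was at 30.4% of the median of the other 6 libraries, Prox1 at 64.9%, Onecut2 at 65.1%, Pdx1 at 65.4% and Gata6 at 95.1%. Foxa2 and Hnf4a, at 89.0% and 93.1%, and Foxa1, at 169%, were not lowest there. This library was picked out after its values were seen. Members highest in it numbered 0, where 23.7% of all tested features and 24.3% of those with a mean of 10 CPM or more were highest.

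The same library was lowest for 11 of 18 other progenitor and trunk factors. Glis3, a zinc finger factor of endocrine and duct development, was at 51.1% of the median of the other libraries, and Nkx2-2, an endocrine homeodomain factor, at 62.7%. The trunk factors Sox9 and Nkx6-1 were at 74.7% and 74.6%. Ptf1a, which directs acinar fate, was at 144% and was highest in this library. The summed level of 12 epithelium markers was 3431 CPM in cKO replicate 1, the median of the 7 libraries, within a range of 3390 to 3815 CPM in cKO and 3253 to 3920 CPM in WT. Cdh1, Epcam, Esrp1 and Cldn6, 4 of the 12 markers, were lowest in cKO replicate 1, and Krt19 alone was highest. Of all tested features with a mean of 10 CPM or more, 31.2% were lowest there and 24.3% highest. Cdh1 had 526, 741 and 713 CPM in cKO replicates 1 to 3, against 654, 868, 686 and 652 CPM in WT replicates 1 to 4.

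Sums of other cell type markers also varied between libraries. Besides the liver sum of 1654 CPM, the 9 neuron and neural crest markers summed to 958 CPM there and 132 and 153 CPM in cKO replicates 2 and 3, against 760, 101, 596 and 318 CPM in WT replicates 1 to 4. Of these, 3 of 9 were higher in the fit, 0 were called and 0 were at 0 counts in all libraries. The 8 acinar markers summed to 45778, 37824 and 26379 CPM in cKO replicates 1 to 3, against 54114 CPM in WT replicate 4 and 25824 to 28123 CPM in the other WT libraries. In WT replicate 4, high in both liver and acinar markers, Onecut1 and Prox1 were the lowest of the WT libraries, and Foxa2 was the highest of all 7. The part of these markers in the levels of the factors was not tested.

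**Figure D4:**
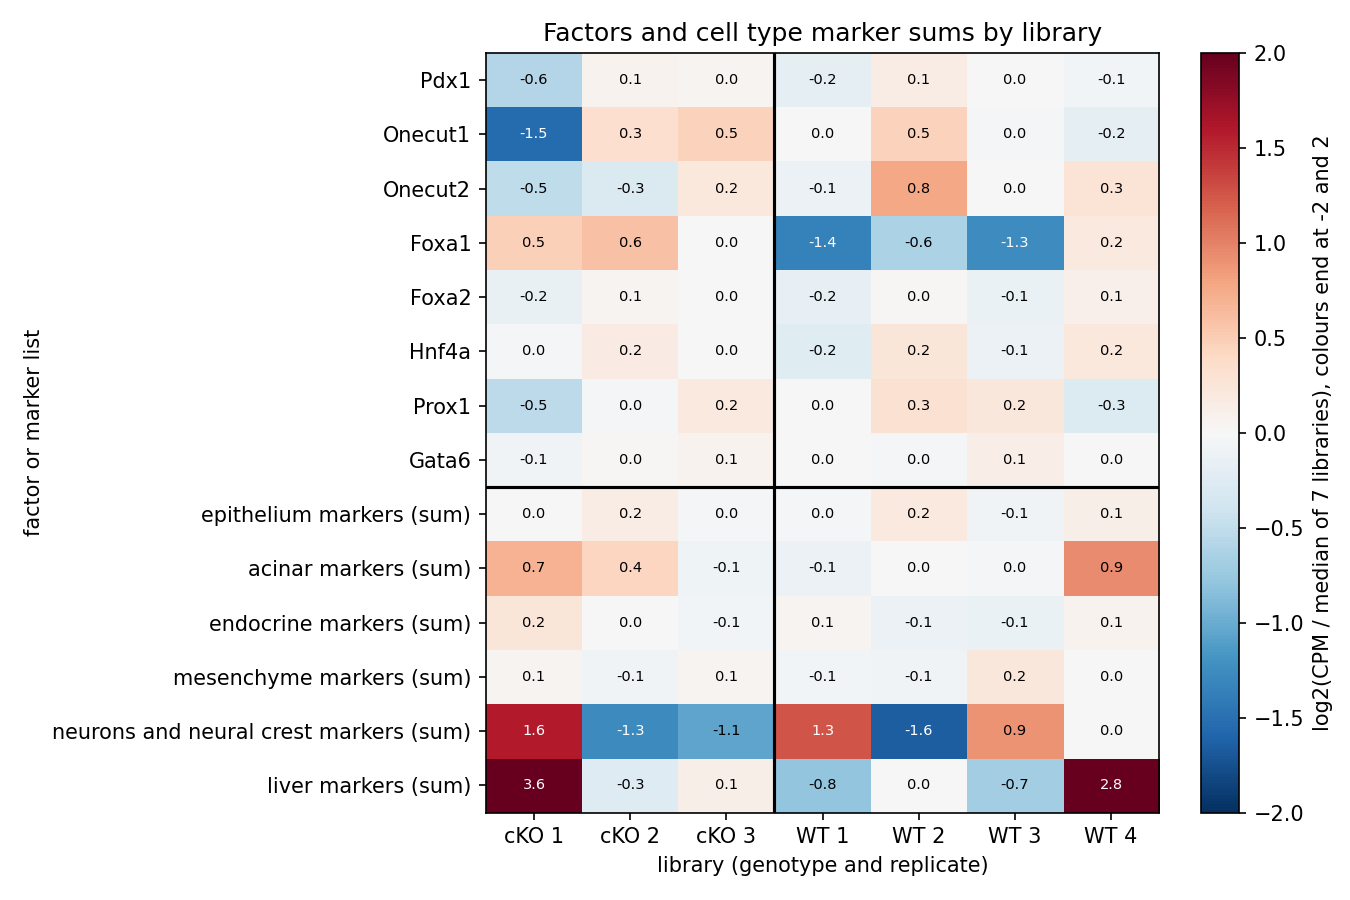
Each cell gives the log2 ratio of CPM to the median of the 7 libraries, for the 8 factors (above the line) and for summed cell type markers (below it), with cKO libraries left of WT libraries. Onecut1 is at -1.5 and the liver sum at 3.6 in cKO replicate 1, where the epithelium sum is at 0.0.

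Set against the epithelium markers instead of all reads, Onecut1, Pdx1, Prox1 and Onecut2 were again lowest in cKO replicate 1, and Gata6 was not. Per 1000 epithelium marker counts, Onecut1 had 2.95, 9.75 and 11.9 counts in cKO replicates 1 to 3, against 8.82, 10.3, 8.74 and 6.96 in WT replicates 1 to 4. Hnf4a had 21.04 ± 0.278 in cKO (SD, n = 3) and 20.7 ± 1.84 in WT (SD, n = 4), and Foxa2 had 21.1 ± 1.30 in cKO and 20.9 ± 0.935 in WT. The log2 difference of the ratio, cKO minus WT, was between -0.42 for Onecut2 and 1.04 for Foxa1. For Pdx1 it was -0.13 against all 12 markers and -0.04 against Epcam and Cdh1 alone. The exact 2-sided permutation p was lowest for Foxa1, at 0.0857 over 35 divisions, and between 0.229 and 0.914 for the other 7, where 0.0286 is the smallest this design allows. The 3 libraries with the highest epithelium sums were cKO replicate 2, WT replicate 2 and WT replicate 4. They were also the 3 highest for Hnf4a, at 80.7, 85.4 and 83.5 CPM, and for Foxa2, at 79.5, 77.9 and 81.7 CPM. None of the other factors had these 3 as its highest libraries. Prox1 was at 81.4, 102 and 68.7 CPM in them, and Gata6 at 96.2, 93.1 and 94.1 CPM.

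Of the 9 paralogues of the factors, the edgeR estimate was higher for 2 and lower for 7, with a median log2 fold change of -0.15 and 0 called. In these and in the 3 lists that follow, 0 genes had an unadjusted p under 0.05. Gata4, the partner of Gata6, had 154 ± 19.5 CPM in cKO (SD, n = 3) and 162 ± 18.3 CPM in WT (SD, n = 4). Foxa3, the paralogue of Foxa1 and Foxa2, had 32.3 ± 1.92 CPM in cKO and 34.0 ± 2.85 CPM in WT. Onecut3, Hnf4g and Prox2 stood at 0.654, 0.917 and 2.88 CPM in cKO and at 0.836, 1.32 and 3.61 CPM in WT. Gata5 ranged from 2.01 to 4.20 CPM in cKO and from 1.79 to 6.20 CPM in WT. Gata2 and Gata3, which sympathetic neurons also express, had 59.5 and 19.8 CPM in cKO replicate 1 but 8.07 to 8.53 and 1.42 to 1.82 CPM in cKO replicates 2 and 3, against 7.63 to 47.3 and 0.835 to 13.7 CPM in WT. The erythroid factor Gata1 was highest in cKO replicate 1, at 6.15 CPM, and WT replicate 4, at 3.53 CPM.

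The estimate was higher for 5 and lower for 13 of the 18 further factors of progenitors and trunk (median log2 fold change -0.06, 0 called). Ptf1a had 64.3 ± 12.4 CPM in cKO (SD, n = 3) and 55.8 ± 9.53 CPM in WT (SD, n = 4), and was not called (edgeR adjusted p = 0.9999). Of 11 cofactors, among them the homeodomain partner Meis1, 3 were higher, 8 lower and 0 called (median -0.04). Meis1 had 73.4 ± 2.17 CPM in cKO and 80.1 ± 5.20 CPM in WT. Of 14 genes reported to be targets of these factors, 9 were higher, 5 lower and 0 called (median 0.06), the smallest p values being those of the beta cell genes Iapp (log2 fold change 0.31, 95% interval -0.01 to 0.62) and Mafa (0.28, -0.12 to 0.69). Pkhd1, a gene of the primary cilium in duct cells, had 12.7, 25.9 and 31.1 CPM in cKO replicates 1 to 3, against 17.3, 33.1, 22.1 and 15.8 CPM in WT replicates 1 to 4. Of the 14 targets, 7 were lowest in cKO replicate 1, where 31.2% of tested features with a mean of 10 CPM or more were lowest, and Pkhd1 was among them. Cys1, another cilium gene of the list, was highest there, with 12.6, 8.47 and 7.79 CPM in cKO replicates 1 to 3, against 10.2, 8.94, 8.97 and 8.55 CPM in WT replicates 1 to 4.

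The genes whose log2 CPM followed each factor most closely over the 7 libraries were picked from 10227 named features with a mean of 10 CPM or more, and the r values are a description of 7 points. Pdx1 was followed most closely by Usp53 (r = 0.995) and Dag1 (r = 0.991), Onecut1 by Vps54 (r = 0.995) and Pitpnc1 (r = 0.992), and Prox1 by Nsd2 (r = 0.995) and Gnptab (r = 0.993). Foxa2 was closest to Cdc42ep4 (r = 0.984) and Gcnt1 (r = 0.975), and Hnf4a to Pkp2 and Proser2 (r = 0.980 for each). Gata6 was closest to the endothelial phosphatase gene Ptprb (r = 0.989) and to Dennd5a (r = 0.982), Onecut2 to Zfp27 (r = 0.984) and Phkb (r = 0.968), and Foxa1 to Txnl4b (r = 0.988) and Psmd5 (r = 0.953). The range differed even where r was high, since Vps54 spanned 55.7 to 68.8 CPM where Onecut1 spanned 10.1 to 40.4 CPM.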

How the data were processed

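Whole-number counts for each feature, without normalization, were deposited by the authors for all 7 libraries. The submitters' processing notes list HISAT2, StringTie, featureCounts and mm39 but assign them no role. The sources used here do not give versions, the strand option or the treatment of multiply matching reads. Columns were matched to samples by genotype and replicate number. Symbols came from GENCODE M21 on GRCm38, matched by gene ID for 26764 of 27138 features and used for names, exon lengths and overlaps only.

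The test was edgeR 4.0.16 under R 4.3.3, with filterByExpr, TMM factors (0.952 to 1.04), robust quasi-likelihood fit on genotype, and Benjamini-Hochberg adjustment over 16910 features, with a call at 0.05. SEs came from the F statistic, CPM from TMM-scaled totals, and log2 CPM used a prior count of 2. Ratios to epithelium markers used a pseudocount of 0.5 and an exact permutation test over 35 divisions. No correlation with marker sums is given, because the libraries fell into separate sets on them. Alternatives used DESeq2 1.42.0, limma 3.58.1, other scalings and filters, and fewer libraries. Members, lists and tests were chosen with earlier results of these data known. Named genes were the 8 members, their paralogues, overlapping genes analysed here, the 2 genes with the smallest p of each of the 4 gene lists, and the 2 most alike features, except that 2 genes this rule names are not reported here; Glis3, Nkx2-2, Sox9, Nkx6-1, Pkhd1, Cys1 and the single epithelium markers were named after their values were seen. Intervals at 95% are for the fitted difference between genotypes, given the spread between animals in these libraries. They are not ranges of single animals.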

Additional observations from a re-analysis of the deposited data

Results flagged for a closer look

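Gata6 was picked out in the WT group, where replicate 3 stood apart at 105 CPM while the other 3 WT libraries had 93.1 to 95.0 CPM. The gap to the nearest library was 0.836 of the group's range. The range itself was small, and Gata6 was among the most even genes over the 7 libraries.

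The summed liver markers were picked out in WT as well, with 969 CPM in replicate 4 and 78.2 to 135 CPM in the other 3 libraries, a gap of 0.936 of the range. Of 11 groups of 4 examined in this way, chance alone marks about 1 in 20.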

How the results depend on the processing

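None of the 8 factors was called in any alternative in which it was tested, 133 values in all with adjusted p between 0.972 and 1.00. Of these, 117 kept their direction and 16 reversed. Leaving out 1 library at a time gave log2 fold changes of -0.22 to 0.083 for Pdx1, -0.39 to 0.33 for Onecut1, -0.67 to -0.22 for Onecut2, 0.825 to 1.17 for Foxa1, -0.0378 to 0.0751 for Foxa2, -0.0713 to 0.0881 for Hnf4a, -0.34 to 0.00943 for Prox1 and -0.0473 to 0.0233 for Gata6. Without both WT replicate 4 and cKO replicate 1, Pdx1 was 0.0682, Onecut1 0.25 and Gata6 0.00615. Foxa1 was not tested there, without WT replicate 4 or with a filter at 1 CPM, since it did not pass the filter.

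The ratio to epithelium markers over single left-out libraries ran from -0.27 to 0.0614 for Pdx1, -0.683 to 0.323 for Onecut1, -0.0349 to 0.0512 for Foxa2, -0.0335 to 0.065 for Hnf4a and -0.0814 to 0.0638 for Gata6. Without WT replicate 4 and cKO replicate 1 it was 0.029 for Pdx1 and 0.221 for Onecut1, and for Gata6 it was 0.0729 against Epcam and Cdh1 alone and 0.0166 without keratins. With all libraries and markers the ratio was -0.13 for Pdx1, -0.30 for Onecut1, 0.0131 for Foxa2, 0.0249 for Hnf4a and -0.0152 for Gata6. Leaving out cKO replicate 1 was the only single omission that reversed Pdx1 or Onecut1. The cause of these reversals was not tested.

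The count of features called, 1 higher and 0 lower in the edgeR fit, was 2 higher and 11 lower with DESeq2, 2 and 2 with no filter, 2 and 3 with scaling on epithelium markers, and 0 and 0 with DESeq2 size factors, library totals, a filter at 1 CPM or estimation that is not robust, where features with unadjusted p under 0.05 numbered 117 higher and 117 lower, 111 and 115, 97 and 104, and 127 and 130 in that order. It was 0 to 3 higher and 0 to 2 lower with 1 library left out. Whether shared replicate numbers pair the libraries was not settled. The deviations of same-numbered libraries correlated at 0.284, 0.419 and 0.0597. cKO replicates 1 and 2 were closest to the WT libraries of their own number, and cKO replicate 3 was closest to WT replicate 2. WT replicate 4 has no cKO library of its number, so with the replicate number as a block it did not bear on the genotype difference. In that fit 6 features were called higher and 7 lower, and 0 of the 8 factors. The edgeR unadjusted p was under 0.05 for 366 features higher and 288 lower, of 16910 tested. Foxa1 had a log2 fold change of 1.40 (edgeR unadjusted p = 0.0239, adjusted p = 0.974), Prox1 one of -0.29 (unadjusted p = 0.0235, adjusted p = 0.974) and Onecut1 one of -0.34 (unadjusted p = 0.573, adjusted p = 0.979). Depth limits Foxa1 most, at 4 to 14 counts per library.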

Other observations

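Rbpj, the DNA-binding partner of Notch receptors and one of the other progenitor factors examined, did not follow genotype. It had 74.4 CPM in cKO replicate 2 and 30.2 and 30.1 CPM in cKO replicates 1 and 3, against 80.8 CPM in WT replicate 2 and 28.3 to 31.6 CPM in the other 3 WT libraries. It was chosen after its values were seen. The log2 fold change was 0.06 (95% interval -1.24 to 1.36).

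The 8 factors did not share 1 extreme library at the upper end. WT replicate 2 was the highest library for 4 of them, Pdx1, Onecut2, Hnf4a and Prox1, while Foxa2 was highest in WT replicate 4, Gata6 in WT replicate 3, Onecut1 in cKO replicate 3 and Foxa1 in cKO replicate 2. Among all tested features, 17.9% had their highest value in WT replicate 2.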
